A study of Mus musculus with 10 samples.

Results

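The levels of 9 genes of the kidney interstitium were followed through bulk RNA-seq of whole E13.5 mouse kidneys, namely *Penk*, *Dcn*, *Lum*, *Tnc*, *Postn*, *Smoc2*, *Fibin*, *Alx1* and *Lox*. They were chosen by name as genes of the medullary and cortical interstitium, and all 9 were found, each on 1 entry, among the 35663 entries of the deposited expression table. The kidneys were wild-type (n=4), *Foxd1GC* control (n=3) or *Ntn1SPKO* (n=3), all from C57/b6 embryos. Control kidneys carried *Foxd1-Cre* alone, and *Ntn1SPKO* kidneys carried *Foxd1-Cre* with conditional *Ntn1* alleles (*Foxd1-Cre; Ntn1/cc*). The Cre allele therefore belongs to both of these groups and not to the wild-type kidneys. It is active in stromal progenitors, and cells outside that lineage keep their *Ntn1* alleles. Values are FPKM (fragments per kilobase of coding sequence, scaled to library depth in a way not stated). They are scaled per length and so can be compared between genes. RNA came from whole kidneys, and fewer cells of a type and less RNA per cell cannot be told apart in such samples. The labels do not say whether replicates came from separate litters, so p-values measure the spread between these samples only.

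The interstitium lies between the tubules and vessels of the kidney, and most of it descends from Foxd1-positive progenitors at the kidney surface. Its cells deposit a matrix of collagen fibres dressed with small proteoglycans, elastic fibres and matricellular proteins, which act on cells more than they bear load. Cells of the cortex, of the outer and inner medulla and around the ureter express different sets of these genes, so the sets serve as marks of zones. Many of the same genes are also strongly expressed in tendon, dermis, muscle connective tissue and cartilage.

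*Dcn*, *Lum* and *Alx1* lie on chromosome 10 of GRCm38, *Dcn* at 97479609 to 97518143, *Lum* at 97565128 to 97572703 and *Alx1* at 102998707 to 103030215. *Dcn* and *Lum* are separated by 47.0 kb, and the proteoglycan genes *Kera* and *Epyc* follow at 34.2 kb and a further 30.4 kb. *Alx1* lies 5316.3 kb beyond *Epyc*. *Penk* (4133531 to 4138819) and *Tnc* (63959785 to 64047015) lie on chromosome 4, *Postn* lies on chromosome 3 (54361109 to 54391037), *Smoc2* on chromosome 17 (14279506 to 14404790) and *Fibin* on chromosome 2 (110360917 to 110363183). All 9 are annotated as protein coding in GENCODE M21. The longest coding sequences range from 651 bases for *Fibin*, on 1 exon, to 6330 bases for *Tnc*, in a transcript of 26 exons.

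Promoter sequences from RefSeq (GRCm38.p6) were used for 3 of the 9 genes, *Postn*, *Tnc* and *Fibin*. They are shown because these genes differed in their pattern, with the lowest group mean in *Ntn1SPKO* kidneys for *Postn* and *Fibin* and not for *Tnc*. Each run is the 250 bases before the start, 5′ to 3′ on the gene's strand. Capitals mark matches to 4 motifs, searched on both strands: the TATA box (TATAAA), a forkhead motif (TGTTTAC), a TEAD motif (GGAATG) and an AP-1 motif (TGANTCA).
Postn, chr3:54360857-54361106, plus strand: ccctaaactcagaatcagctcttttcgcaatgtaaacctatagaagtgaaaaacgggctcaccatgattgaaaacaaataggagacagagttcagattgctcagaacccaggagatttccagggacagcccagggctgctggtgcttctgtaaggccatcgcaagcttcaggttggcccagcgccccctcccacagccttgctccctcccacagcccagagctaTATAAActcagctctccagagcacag
Tnc, chr4:64046937-64047186, minus strand: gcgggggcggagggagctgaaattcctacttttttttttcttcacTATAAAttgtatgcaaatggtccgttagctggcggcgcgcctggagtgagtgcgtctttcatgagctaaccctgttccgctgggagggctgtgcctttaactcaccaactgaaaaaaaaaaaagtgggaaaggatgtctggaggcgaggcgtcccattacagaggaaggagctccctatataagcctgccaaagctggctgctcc
Fibin, chr2:110362994-110363243, minus strand: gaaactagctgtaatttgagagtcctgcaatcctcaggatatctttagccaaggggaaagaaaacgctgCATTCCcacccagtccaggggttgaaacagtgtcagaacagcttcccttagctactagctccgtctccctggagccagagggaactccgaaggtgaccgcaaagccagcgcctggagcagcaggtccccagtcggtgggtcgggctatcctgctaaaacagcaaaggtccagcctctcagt
The TATAAA match of *Postn* lies 26 to 21 bases before the start, and that of *Tnc* 205 to 200 bases before it. The *Tnc* run also holds the letters TATATAA nearer the start, left unmarked because only the exact TATAAA was searched. The *Fibin* run holds no TATAAA match and 1 TEAD match on the other strand, 181 to 176 bases before the start. Among 32851 promoters of the same length, 12.4% hold the TATA box, 12.6% the TEAD motif, 6.75% the AP-1 motif and 3.17% the forkhead motif. No forkhead or AP-1 match was found in these 3 runs. The second *Postn* start listed holds none of the 4 motifs, and the second *Tnc* start overlaps the first and holds the same TATAAA match. GC content was 52% for the *Postn*, 51.2% for the *Tnc* and 54.8% for the *Fibin* run, against a median of 52.4% over all promoters.

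Before the comparisons, the labels and the make-up of the libraries were checked. *Ntn1*, the deleted gene, was at 16.3, 13.1 and 10.7 FPKM in *Ntn1SPKO* replicates 1 to 3, below all other libraries (24.2 to 51.4 FPKM). The 12 kidney identity markers were present in every library, with summed levels of 496 to 574 FPKM in wild-type, 486 to 515 in *Foxd1GC* control and 516 to 576 in *Ntn1SPKO* libraries. Rough depth, read from the smallest steps between low values, was 29 to 36 M fragments per library, and the lowest member value of all (*Alx1* in *Foxd1GC* control replicate 3) rested on about 85 fragments. Y-linked transcripts were present in wild-type replicate 3, *Foxd1GC* control replicate 2 and all 3 *Ntn1SPKO* libraries. The sum of FPKM over all entries was 1002638 in wild-type replicate 3 and 795829 to 874966 in the other libraries. The controls stood apart from each other: summed FPKM of 29 skeletal muscle genes was 317, 127 and 1373 in replicates 1 to 3, against 187 to 320 in wild-type and 73.4 to 150 in *Ntn1SPKO* libraries. *Foxd1GC* control replicate 3 also had the highest sum of 12 tendon, dermis and body wall genes (107 FPKM, other libraries 40.9 to 73.0). The same held for 18 renal stroma genes (2566 FPKM, other libraries 1720 to 1994). A large part of that stroma sum was *Cdkn1c*, at 964 FPKM in control replicate 3 and 546 to 634 FPKM in the other libraries. Between controls and wild-type kidneys 8 of the 18 stroma genes were lower (median log2 fold change 0.03). The muscle gene *Mylpf* was at 119, 27.5 and 545 FPKM in control replicates 1 to 3, at 61.5 to 103 FPKM in wild-type and at 2.35 to 38.1 FPKM in *Ntn1SPKO* libraries. *Foxd1GC* control replicate 3 was the highest of all 10 for 6 of the 9 interstitial genes and the lowest for *Alx1*, and *Foxd1GC* control replicate 2 was the lowest control for 7 of them.

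**Figure D1:**
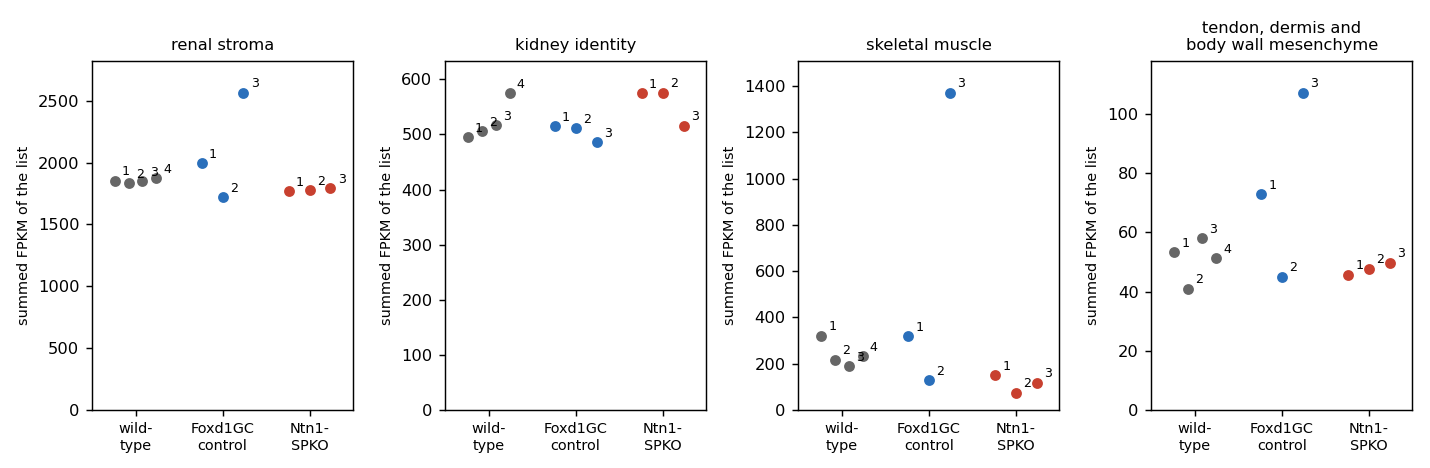
Summed FPKM of 4 marker lists (vertical axes, starting at 0) in wild-type, *Foxd1GC* control and *Ntn1SPKO* libraries, each point a library with its replicate number. *Foxd1GC* control replicate 3 stands at 1373 FPKM for skeletal muscle, where the *Ntn1SPKO* libraries lie between 73.4 and 150.

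In wild-type kidneys *Postn* was the most abundant of the 9 genes at 102 ± 24.2 FPKM (SD, n=4), above 96.9% of all entries. *Smoc2* (42.9 ± 9.49 FPKM) and *Dcn* (42.2 ± 10.3 FPKM) came next, followed by *Penk* (26.0 ± 7.03), *Lum* (16.6 ± 4.05), *Lox* (13.8 ± 0.807), *Fibin* (12.3 ± 0.783), *Tnc* (10.6 ± 1.53) and *Alx1* (10.3 ± 2.95). The ranges of *Postn* and *Smoc2* did not overlap, whereas every other pair of neighbours in this order did overlap, so only the first step exceeds the spread between the wild-type libraries. *Lox* and *Fibin* were the steadiest wild-type genes, with coefficients of variation of 5.87% and 6.34%, and *Alx1* the most variable at 28.5%. In *Foxd1GC* control kidneys the coefficients were larger for all 9 genes, from 28.5% for *Penk* to 69.7% for *Alx1*, and no neighbours in the order of levels had separate ranges. In *Ntn1SPKO* kidneys *Postn* still led, at 46.5 ± 10.6 FPKM (n=3), but *Smoc2* was the fifth in order, at 18.1 ± 4.12 FPKM (n=3), behind *Dcn*, *Penk* and *Lum*. Its range there overlapped that of *Lum* and not that of *Lox*, the next below.

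**Figure D2:**
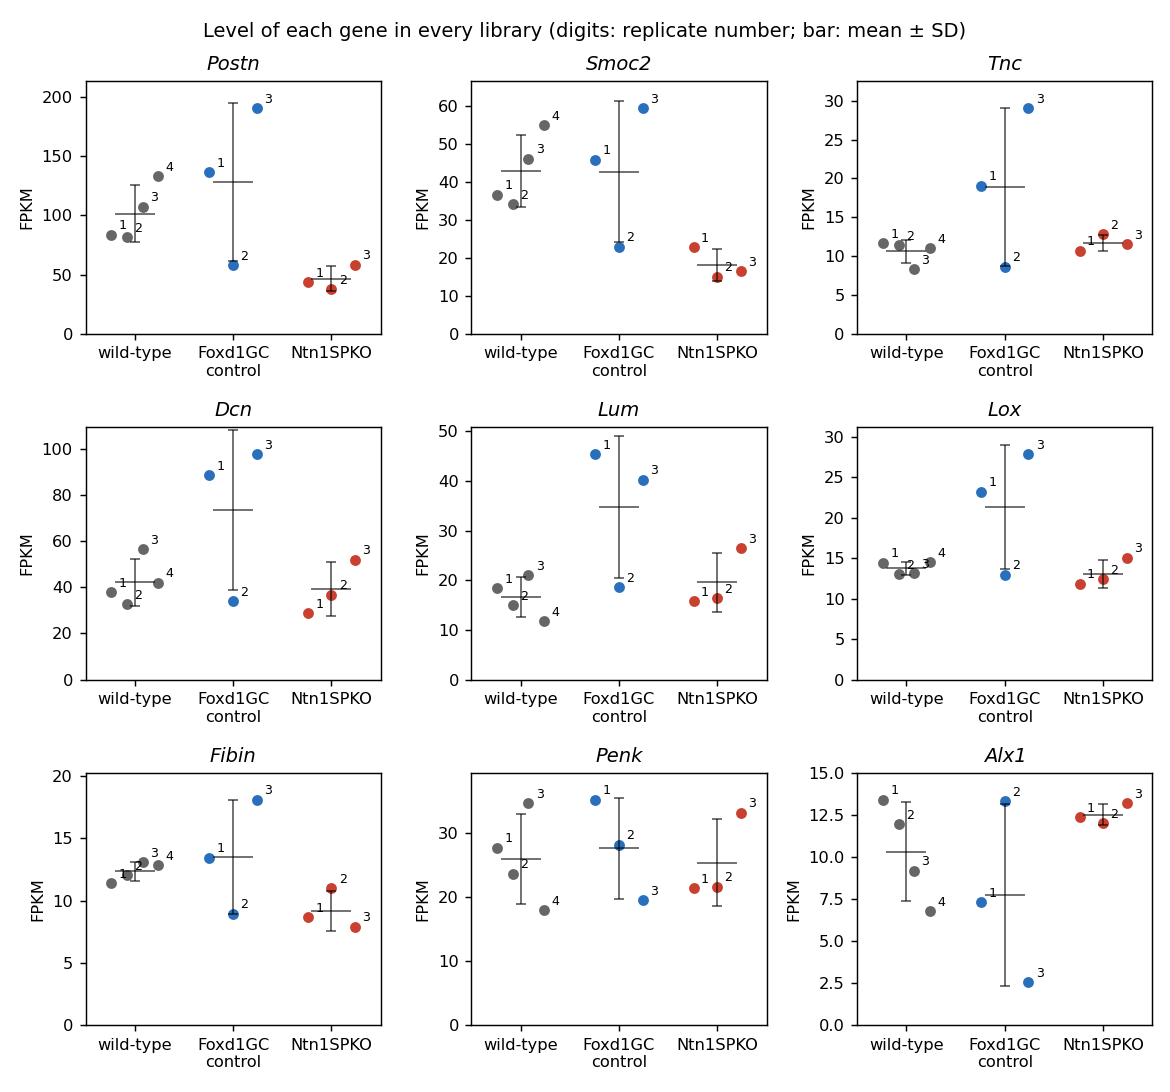
FPKM (vertical axes, starting at 0) of the 9 genes in wild-type, *Foxd1GC* control and *Ntn1SPKO* libraries, each point a library with its replicate number, and bars the mean ± SD. *Smoc2* in the 3 *Ntn1SPKO* libraries (15.1 to 22.8 FPKM) sits below all others, while *Tnc*, *Lum* and *Lox* spread mainly among the controls.

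The main comparison set *Ntn1SPKO* against *Foxd1GC* control kidneys, which share the Cre allele and differ in the *Ntn1* alleles. Lower group means were found for 8 of the 9 genes in *Ntn1SPKO* kidneys, and *Alx1* was the exception. *Postn* and *Smoc2* had the largest differences, 2.51-fold and 2.22-fold lower on the log2(FPKM+0.1) scale. Of the 9 genes, 0 were called by limma at an adjusted p under 0.1 and a 2-fold or larger change, where 0.0550% of all 14550 genes tested were called. An unadjusted p under 0.05 with a lower level was reached by 2 of the 9, *Postn* and *Smoc2*, against 5.17% of all genes. Groups did not overlap, with the mutant lower, for 1 of the 9, *Smoc2*, against 8.91% of all genes. The median log2 fold change of the 9 genes was −0.64, beside a median of 0.01 over all genes. With 3 libraries against 3 the exact permutation test cannot go below p=0.1.

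Against wild-type kidneys 6 of the 9 genes had a log2 fold change below 0. *Postn*, *Smoc2* and *Fibin* were lower in all 3 *Ntn1SPKO* libraries than in all 4 wild-type libraries, and the other 6 genes overlapped. Again 0 of the 9 genes were called by limma by the same limits, against 0.0485% of 14432 genes. An unadjusted p under 0.05 with a lower level was reached by these 3 genes (3.31% of all genes), and the same 3 had groups that did not overlap (3.54% of all genes). The median log2 fold change of the 9 was −0.08, beside 0.00 over all genes. Since the *Ntn1SPKO* kidneys carry *Foxd1-Cre* and wild-type kidneys do not, this comparison includes the Cre allele. The smallest p of the exact permutation test is here 0.0286.

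*Foxd1GC* control against wild-type kidneys differ, by their labels, in the Cre allele alone. Of the 9 genes 7 had higher and 2 lower means in the controls, with a median log2 fold change of 0.20 beside −0.01 over all genes. By limma 0 of the 9 were called, against 0.00685% of 14594 genes. *Lum* and *Lox* reached an unadjusted p under 0.05 with a higher level (3.84% of all genes), and 0 of the 9 genes had groups that did not overlap in that direction (4.04% of all genes). The 3 comparisons share libraries in pairs, so their values are not independent of each other.

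**Figure D3:**
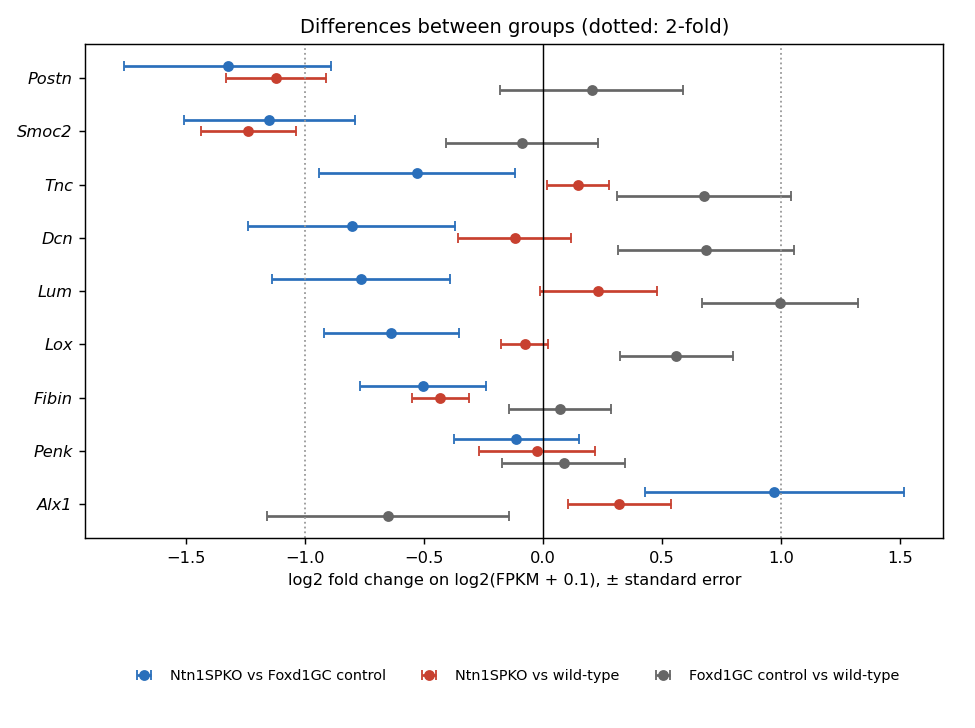
Log2 fold change of each gene (horizontal axis, on log2(FPKM + 0.1)) with its standard error (SE) in the 3 comparisons, and dotted lines at a 2-fold change. *Postn* and *Smoc2* lie below −1 against both other groups, while *Tnc*, *Dcn*, *Lum* and *Lox* lie below 0 against controls and near 0 against wild-type kidneys.

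*Postn* encodes periostin, a matricellular protein that binds collagen and helps to recruit cross-linking enzymes to it. Its level was 43.5, 37.7 and 58.3 FPKM in *Ntn1SPKO* replicates 1 to 3. In *Foxd1GC* control replicates 1 to 3 it was 137, 57.9 and 191 FPKM. Wild-type replicates 1 to 4 stood at 83.7, 81.7, 108 and 133 FPKM. All *Ntn1SPKO* libraries were below all wild-type libraries, and *Foxd1GC* control replicate 2 was just below the highest *Ntn1SPKO* library. Against controls the log2 fold change came to −1.33 with an SE of 0.43 (limma adjusted p=0.447, exact permutation p=0.2). Set against wild-type kidneys the value was −1.12 (SE 0.21, limma adjusted p=0.204, exact permutation p=0.0286), and controls against wild-type gave 0.20 (SE 0.38, limma adjusted p=0.872).

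*Smoc2*, a secreted calcium-binding protein of the SPARC family, gave the clearest separation. It was at 22.8, 15.1 and 16.5 FPKM in *Ntn1SPKO* replicates 1 to 3. *Foxd1GC* control replicates 1 to 3 were at 45.8, 22.9 and 59.4 FPKM, and wild-type replicates 1 to 4 at 36.6, 34.1, 46.0 and 54.9 FPKM. Every *Ntn1SPKO* library was thus below every other library, although the gap between *Ntn1SPKO* replicate 1 and *Foxd1GC* control replicate 2 was small. The log2 fold change was −1.15 against controls (SE 0.36, limma adjusted p=0.447, exact permutation p=0.1) and −1.24 against wild-type kidneys (SE 0.20, limma adjusted p=0.14, exact permutation p=0.0286). Between controls and wild-type kidneys it was −0.09 (SE 0.32, limma adjusted p=0.936).

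The calls of *Postn* and *Smoc2* against controls depend on *Foxd1GC* control replicate 2, the control with Y-linked transcripts and the lowest control for both. Without it both genes passed the call against controls, *Postn* at −1.82 (log2, limma adjusted p=0.0751) and *Smoc2* at −1.54 (limma adjusted p=0.0868), but all remaining controls then lacked Y-linked transcripts while all *Ntn1SPKO* libraries held them. Without control replicate 3, the library with the highest muscle sum, the values were −0.96 for *Postn* and −0.86 for *Smoc2*, and neither was called. With embryo sex as a covariate the differences from controls shrank to −0.34 and −0.36, whereas against wild-type kidneys they were −1.23 and −1.36. Since all *Ntn1SPKO* libraries held Y-linked transcripts, these fits set them against control replicate 2 alone and wild-type replicate 3 alone. Calls from these fits are not given for that reason. Wild-type replicate 3 is also the library with the highest summed FPKM over all entries (1002638). Among the 5 libraries with Y-linked transcripts, *Smoc2* in the 3 *Ntn1SPKO* libraries was below both others (46.0 FPKM in wild-type replicate 3, 22.9 in *Foxd1GC* control replicate 2), with an exact permutation p of 0.2. *Postn* in the *Ntn1SPKO* libraries was below wild-type replicate 3 at 108 FPKM and overlapped *Foxd1GC* control replicate 2 at 57.9 FPKM (exact permutation p=0.3). The share of all genes without overlap was not computed for these 5 libraries. The part of embryo sex in these differences was not tested beyond these values. Skeletal muscle genes moved with both genes. All 25 tested were lower in *Ntn1SPKO* than in control kidneys (median log2 fold change −2.29, 0 called). Of these, 8 had an unadjusted p under 0.05, where 5.17% of all genes were lower at that limit. Against wild-type kidneys 22 of 24 were lower (median −1.65, 0 called). There 16 were lower at an unadjusted p under 0.05, against 3.31% of all genes. Of the 29 muscle genes *Ckm* was listed at 0 in all *Ntn1SPKO* libraries. The part of muscle or other adjoining tissue in the levels of *Postn* and *Smoc2* was not tested.

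*Tnc* encodes tenascin C, a large glycoprotein of embryonic mesenchyme. It was at 10.7, 12.8 and 11.5 FPKM in *Ntn1SPKO* replicates 1 to 3 and at 11.6, 11.4, 8.33 and 11 FPKM in wild-type replicates 1 to 4. *Foxd1GC* control replicates 1 to 3 were at 19.1, 8.65 and 29.1 FPKM, so that the controls lay on both sides of the *Ntn1SPKO* libraries. Log2 fold changes were −0.53 against controls (SE 0.41, limma adjusted p=0.561), 0.15 against wild-type kidneys (SE 0.13, limma adjusted p=0.947) and 0.68 between controls and wild-type kidneys (SE 0.37, limma adjusted p=0.665). In the 5 libraries with Y-linked transcripts the *Ntn1SPKO* kidneys were above both others for *Tnc* (8.33 and 8.65 FPKM, exact permutation p=0.1, the smallest this split allows). Of the 9 genes, 1 was above both others in this split (*Tnc*), 1 below both (*Smoc2*), and 7 overlapped. The share of all genes was not computed for it. Against wild-type kidneys the groups overlapped for *Tnc* and not for *Postn* and *Smoc2*, the other matricellular genes among the 9.

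*Dcn* and *Lum* encode decorin and lumican, small leucine-rich proteoglycans that bind collagen fibrils and regulate their spacing. *Dcn* was at 28.8, 36.8 and 51.9 FPKM in *Ntn1SPKO* replicates 1 to 3, at 88.6, 33.9 and 97.7 FPKM in control replicates 1 to 3 and at 37.7, 32.6, 56.4 and 41.9 FPKM in wild-type replicates 1 to 4. *Lum* was at 15.8, 16.4 and 26.5 FPKM in *Ntn1SPKO*, at 45.4, 18.5 and 40.3 FPKM in control and at 18.4, 15.0, 21 and 11.7 FPKM in wild-type kidneys, in the same order of replicates. For both genes control replicates 1 and 3 were above all other libraries, and control replicate 2 lay among the wild-type and *Ntn1SPKO* libraries. Against controls the log2 fold change was −0.80 for *Dcn* (SE 0.43, limma adjusted p=0.463, exact permutation p=0.3) and −0.76 for *Lum* (SE 0.38, limma adjusted p=0.45, exact permutation p=0.2). The values against wild-type kidneys were −0.12 for *Dcn* (SE 0.24, limma adjusted p=0.956) and 0.23 for *Lum* (SE 0.25, limma adjusted p=0.947). Between controls and wild-type kidneys it was 0.69 for *Dcn* (SE 0.37, limma adjusted p=0.665) and 1.00 for *Lum* (SE 0.33, limma adjusted p=0.665, exact permutation p=0.0571), the largest member difference in that comparison. The ratio of *Dcn* to *Lum* was between 1.82 and 2.24 in *Ntn1SPKO*, 1.83 and 2.43 in control and 2.05 and 3.57 in wild-type libraries.

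*Kera* and *Epyc*, which follow *Dcn* and *Lum* on chromosome 10 and encode keratocan and epiphycan, were examined after their values had been seen. Both were low. *Kera* was at 0.1, 0.133 and 0.148 FPKM in *Ntn1SPKO* replicates 1 to 3, at 0.574, 0.0969 and 0.822 FPKM in control replicates 1 to 3 and at 0.441 to 0.735 FPKM in wild-type libraries. *Epyc* was at 0.238, 0.0686 and 0.127 FPKM in *Ntn1SPKO* replicates 1 to 3, at 1.05, 0.356 and 1.85 FPKM in control replicates 1 to 3 and at 0.299 to 0.443 FPKM in wild-type libraries. Both lay below their wild-type ranges in the *Ntn1SPKO* libraries. These values are a description, since both genes were near or under the filter on low values.

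*Lox* encodes lysyl oxidase, the enzyme that starts the covalent cross-linking of collagen and elastin. It was at 11.8, 12.4 and 15.1 FPKM in *Ntn1SPKO* replicates 1 to 3 and within 13.0 to 14.5 FPKM in wild-type libraries. Control replicates 1 to 3 were at 23.2, 12.9 and 27.9 FPKM, again with replicate 2 at the wild-type level. The log2 fold change was −0.64 against controls (SE 0.28, limma adjusted p=0.447, exact permutation p=0.2), −0.08 against wild-type kidneys (SE 0.10, limma adjusted p=0.948) and 0.56 between controls and wild-type kidneys (SE 0.24, limma adjusted p=0.665, exact permutation p=0.143).

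*Fibin*, a single-exon gene for a small secreted protein, was at 8.67, 11 and 7.92 FPKM in *Ntn1SPKO* replicates 1 to 3. Wild-type replicates 1 to 4 were close together at 11.4, 12.0, 13.1 and 12.9 FPKM, all above the *Ntn1SPKO* libraries. Control replicates 1 to 3 were at 13.4, 8.95 and 18.1 FPKM, and replicate 2 overlapped the mutants. The log2 fold change was −0.50 against controls (SE 0.26, limma adjusted p=0.46, exact permutation p=0.2) and −0.43 against wild-type kidneys (SE 0.12, limma adjusted p=0.515, exact permutation p=0.0286). The difference from wild-type kidneys was 1.35 times, under the 2-fold limit of the call.

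*Penk*, the precursor of the enkephalin opioid peptides, showed no separation of groups. It was at 21.3, 21.6 and 33.2 FPKM in *Ntn1SPKO* replicates 1 to 3, at 35.2, 28.2 and 19.5 FPKM in control replicates 1 to 3 and at 27.7, 23.7, 34.6 and 17.9 FPKM in wild-type replicates 1 to 4. Log2 fold changes were −0.11 against controls (SE 0.26, limma adjusted p=0.852), −0.02 against wild-type kidneys (SE 0.24, limma adjusted p=0.992) and 0.09 between controls and wild-type kidneys (SE 0.26, limma adjusted p=0.922). Unlike 6 of the other genes, *Penk* was not highest in control replicate 3, which was in fact its lowest control.

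*Alx1*, a homeobox transcription factor of embryonic mesenchyme, was the member with a higher mean in *Ntn1SPKO* than in control kidneys. It was at 12.4, 12.0 and 13.2 FPKM in *Ntn1SPKO* replicates 1 to 3, the tightest values of any of the 9 genes in that group (coefficient of variation 4.79%). Control replicates 1 to 3 were at 7.33, 13.3 and 2.56 FPKM and wild-type replicates 1 to 4 at 13.4, 12.0, 9.20 and 6.77 FPKM. The log2 fold change was 0.97 against controls (SE 0.55, limma adjusted p=0.47, exact permutation p=0.4), 0.32 against wild-type kidneys (SE 0.22, limma adjusted p=0.947) and −0.65 between controls and wild-type kidneys (SE 0.51, limma adjusted p=0.7). The value against controls was 0.34 without control replicate 3 and 1.5 without control replicate 2, and that for controls against wild-type kidneys was −0.02 and −1.18 without the same libraries. Control replicate 3, with the highest *Postn*, had the lowest *Alx1*, and the 6 libraries with the lowest *Postn* had *Alx1* between 12.0 and 13.4 FPKM. The ratio of *Smoc2* to *Alx1* was 1.25 to 1.84 in *Ntn1SPKO* libraries, 2.73 to 8.11 in wild-type libraries and 6.25, 1.72 and 23.2 in control replicates 1 to 3.

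**Figure D4:**
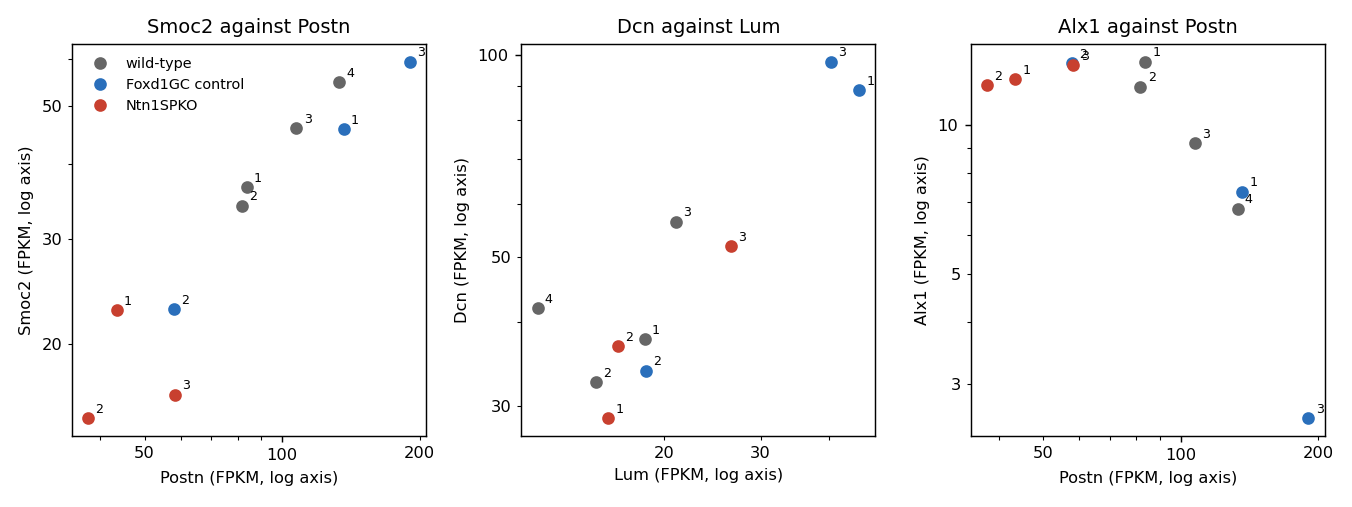
FPKM of *Smoc2* against *Postn*, of *Dcn* against *Lum* and of *Alx1* against *Postn* (all log axes), each point a library with its replicate number, coloured by group. *Smoc2* runs with *Postn* from 15.1 FPKM in *Ntn1SPKO* replicate 2 to 59.4 FPKM in *Foxd1GC* control replicate 3, whereas *Alx1* falls to 2.56 FPKM in that control.

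Levels were also set against the median of 18 renal stroma genes in the same library, as a description of how far a gene departs from the stroma around it. This list holds *Foxd1*, *Meis1*, *Pdgfra* and others, and limma called 0 of its genes in any comparison. Its median log2 fold change was −0.08 against controls (12 of 18 lower, 0 at an unadjusted p under 0.05). Against wild-type kidneys it was −0.03 (11 of 18 lower). There 4 were lower and 2 higher at an unadjusted p under 0.05, where 3.31% of all genes were lower at that limit. Relative to it, *Postn* differed by −1.26 and *Smoc2* by −1.09 between *Ntn1SPKO* and control kidneys (log2 ratios), and for both genes the groups did not overlap. Against wild-type kidneys the differences were −1.05 for *Postn* and −1.17 for *Smoc2*, again without overlap. *Alx1* was also without overlap there, but higher in the *Ntn1SPKO* libraries (0.39). *Foxd1* itself was at 24.4 ± 4.39 FPKM in wild-type (n=4), 20.0 ± 5.46 FPKM in control (n=3) and 14.6 ± 0.667 FPKM in *Ntn1SPKO* kidneys (n=3), with a log2 fold change of −0.41 against controls (SE 0.19, limma adjusted p=0.45) and −0.72 against wild-type kidneys (SE 0.13, limma adjusted p=0.193). Relative to *Foxd1*, the difference from wild-type kidneys was −0.40 for *Postn* and −0.52 for *Smoc2* with overlapping groups, while *Lum* (0.95), *Tnc* (0.86), *Lox* (0.64) and *Alx1* (1.04) were higher in the *Ntn1SPKO* libraries without overlap. Relative to *Foxd1*, *Lum* (1.30), *Tnc* (0.99), *Lox* (0.87) and *Fibin* (0.38) were also higher in *Foxd1GC* control than in wild-type libraries without overlap. The *Foxd1GC* allele, which both groups carry, disrupts the *Foxd1* copy that carries it, so this reference may itself differ with the Cre allele. Between control and wild-type kidneys *Foxd1* levels overlapped (log2 fold change −0.31, SE 0.20, limma adjusted p=0.679). The part of the Cre allele in the *Foxd1* level was not tested. *Foxd1* was at 14.2 to 15.4 FPKM in *Ntn1SPKO* and 21.3 to 30.7 FPKM in wild-type libraries, so a steady gene comes out higher relative to it. For ratios to either reference, the share of all genes without overlap was not computed.

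The families to which the genes belong were examined without the 9 genes. Of 16 further leucine-rich proteoglycans, 8 were tested between *Ntn1SPKO* and control kidneys, and 7 were lower and 1 higher (median log2 fold change −0.16, 0 called, 2 at an unadjusted p under 0.05). *Bgn*, the biglycan gene, was at 36.0 ± 4.22 FPKM in *Ntn1SPKO* and 37.6 ± 3.68 FPKM in control kidneys (n=3 each), *Ogn*, for osteoglycin, at 10.5 ± 1.65 and 20.8 ± 12.7 FPKM, and *Tsku*, for tsukushi, at 12.9 ± 1.00 and 13.8 ± 1.99 FPKM. *Ogn* thus shared with *Dcn* and *Lum* the wide spread among controls, and *Bgn* and *Tsku* did not. Of 22 further matricellular genes 16 were tested, with 15 lower and 1 higher (median −0.47, 0 called, 1 at an unadjusted p under 0.05). *Sparc* was at 289 ± 16.0 and 360 ± 79.7 FPKM, *Tgfbi* at 99.7 ± 3.87 and 123 ± 32.6 FPKM and *Spock2*, the gene that was higher, at 81.8 ± 10.7 and 72.8 ± 4.26 FPKM in *Ntn1SPKO* and control kidneys. Of 20 further genes for cross-linking and elastic fibres 19 were tested and all 19 were lower (median −0.34, 0 called, 4 at an unadjusted p under 0.05). Among them *Mfap2* was at 105 ± 4.61 and 130 ± 19.0 FPKM, *Fbn2* at 62.2 ± 3.33 and 85.2 ± 22.3 FPKM and *Mfap4* at 64.4 ± 5.55 and 83.5 ± 20.8 FPKM. Over all 14550 genes tested 48.8% were lower in this comparison, and 5.17% were lower at an unadjusted p under 0.05.

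Against wild-type kidneys the family medians were closer to 0. They were 0.11 for the proteoglycans (2 of 6 tested genes lower), −0.07 for the matricellular genes (11 of 16 lower) and −0.06 for the cross-linking and elastic fibre genes (13 of 19 lower). By limma 0 were called in each, with 2, 4 and 2 genes at an unadjusted p under 0.05 in either direction. Of these, 1, 3 and 1 were lower, against 3.31% of all genes. Between controls and wild-type kidneys the medians were 0.27, 0.35 and 0.30, with 8 of 9, 14 of 16 and 18 of 19 genes higher. Again 0 were called in each by limma, and 1, 3 and 3 genes reached an unadjusted p under 0.05, all higher (3.84% of all genes). In *Ntn1SPKO* against wild-type kidneys *Tgfbi* lay below all wild-type libraries (log2 fold change −0.29, SE 0.08, limma adjusted p=0.529). *Foxd1GC* control replicate 2, at 89.0 FPKM, was lower still than the *Ntn1SPKO* libraries (95.8 to 103 FPKM). Of the 7 further opioid peptide and receptor genes only *Pomc* passed the filter on low values, at 0.686 ± 0.0893 FPKM in *Ntn1SPKO* and 0.9 ± 0.124 FPKM in control kidneys. *Oprd1* and *Oprl1*, opioid receptor genes, had means of 0.177 to 0.365 FPKM in the 3 groups, and *Oprm1* was listed at 0 in all control and all *Ntn1SPKO* libraries. Of 5 further aristaless-related homeobox genes 3 were tested against controls. *Prrx1* was at 22.4 ± 1.63 FPKM in *Ntn1SPKO* and 38.0 ± 18.9 FPKM in control kidneys, *Prrx2* at 7.26 ± 0.442 and 7.79 ± 0.907 FPKM and *Alx4* at 0.469 ± 0.13 and 1.43 ± 1.32 FPKM. *Prrx1* and *Alx4* peaked in control replicate 3, at 57.7 and 2.93 FPKM, where *Alx1* was lowest.

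For each gene the 3 genes with the most similar course over the 10 libraries were found by Pearson's r of log2(FPKM+0.1), among genes whose mean reached 1 FPKM. These values describe 10 libraries that also share tissue make-up and depth, and were not tested. Nearest to *Lox* were *Ccn4* (r=0.990), *Col6a1* (r=0.989) and *Cd248* (r=0.988). Nearest to *Postn* were *Cdh8* (r=0.974), *Arsb* (r=0.974) and *Loxl4* (r=0.974), and nearest to *Smoc2* were *Ptger3* (r=0.977), *Rxfp2* (r=0.964) and *Sertad4* (r=0.964). *Dcn* was followed by *Arfgap3* (r=0.968), *Rcn3* (r=0.967) and *Mxra8* (r=0.955), and *Lum* by *Sfrp2* (r=0.976), *Sulf1* (r=0.969) and *B3gnt9* (r=0.965). *Tnc* was nearest to *Ttc38* (r=0.967), *Loxl2* (r=0.958) and *Galnt11* (r=0.957), and *Fibin* to *Inpp4a* (r=0.974), *Cyp1b1* (r=0.957) and *C1qtnf3* (r=0.947). For *Alx1* the nearest were *Snai2* (r=0.989), *Fzd10* (r=0.984) and *Bcam* (r=0.981). *Penk* had *Cldn11* (r=0.958), *Gm19196* (r=0.904) and *Car3* (r=0.901), the lowest such values of the 9. Without the 2 libraries farthest from the median of *Tnc*, its r was 0.866 with *Ttc38*, 0.801 with *Loxl2* and 0.666 with *Galnt11*. The same values of the other genes ran from 0.842 to 0.987.

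Other cell types were followed by further marker lists. Sums of 9 smooth muscle and ureteric mesenchyme genes were 59.5 to 78.8 FPKM in *Ntn1SPKO*, 66.0 to 142 FPKM in control and 49.0 to 78.3 FPKM in wild-type libraries. Sums of 10 cartilage genes were 41.1 to 46.8, 33.5 to 49.6 and 32.2 to 41.8 FPKM in the same groups, with *Snorc* listed at 0 in every library. For 6 of 7 mesothelial genes in the table they were 20.8 to 29.2, 21 to 29.0 and 19.1 to 28.1 FPKM, and for 9 nerve and neural crest genes 17.9 to 18.4, 17.8 to 20.5 and 15.2 to 27.6 FPKM. The 12 gonad and adrenal genes summed to 3.66 to 4.09 FPKM in *Ntn1SPKO*, 2.87 to 4.64 FPKM in control and 2.92 to 3.41 FPKM in wild-type libraries, so that *Ntn1SPKO* and wild-type libraries did not overlap. Most of this sum was *Mc2r*, for the corticotropin receptor of the adrenal gland. It was at 2.80 to 3.02 FPKM in *Ntn1SPKO* and at 1.84 to 2.35 FPKM in all other libraries. *Mc2r* was the only 1 of the 12 genes to pass the filter on low values. *Star*, the next most abundant, had means of 0.229 FPKM in *Ntn1SPKO* and 0.219 FPKM in wild-type kidneys. *Cyp17a1*, *Insl3* and *Cyp21a1* were listed at 0 in all wild-type and all *Ntn1SPKO* libraries. The part of skeletal muscle, smooth muscle and body wall tissue in the control spread of *Dcn*, *Lum*, *Tnc* and *Lox* was not tested, and neither was that of gonad and adrenal tissue in any difference of the *Ntn1SPKO* libraries.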

How the data were processed

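RNA-seq libraries of whole E13.5 kidneys were wild-type (n=4), *Foxd1GC* control (n=3) or *Ntn1SPKO* (n=3), grouped by the labels. The deposited values are FPKM. The authors quantified reads with Salmon against coding sequences of Ensembl GRCm38, used tximport for import and DESeq2 for their own tests. The submitters' processing notes also name bcl2fastq 2.17.1.14. How the FPKM were scaled is not given in the sources used here, and depth is known only roughly. Members, lists and tests were chosen with earlier results of these data known.

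Tests on log2(FPKM+0.1) took the genes whose mean over the libraries compared reached 0.5 FPKM. This scale understates changes of low genes. The tool was limma 3.58.1 (R 4.3.3, eBayes with trend) with Benjamini-Hochberg adjustment. Each comparison used its own 2 groups. Calls needed an adjusted p under 0.1 and a 2-fold change. Single genes also had an exact permutation test over libraries, two-sided, in scipy 1.17.1. On simulated data with 14550 genes, 200 of 200 changed genes were recovered with 0 false calls. Their median estimated log2 change was 2.01, which is larger than any difference of the 9 genes. Every simulated gene had the same spread, the median within groups, so recovery at the actual spread of each gene was not tested. Coordinates are 1-based positions of GENCODE M21, and promoters are those of RefSeq.

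Named genes were the 9 members, *Ntn1*, *Foxd1*, the 3 most abundant others of each family list, and the 3 genes most like each member. The most abundant muscle, renal stroma, and gonad and adrenal markers were also named, as were markers at 0. *Kera*, *Epyc*, *Fbln5* and *Ccn3* were added after their values were seen, and *Tgfbi* was singled out against wild-type kidneys in the same way. Embryo sex was read from Y-linked transcripts (summed FPKM above 10).

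Alternatives were other pseudocounts, filters, scalings and eBayes settings, 1 fit of all 10 libraries, a block by replicate number, embryo sex as a covariate, an unadjusted p, and each library left out in turn.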

Additional observations from a re-analysis of the deposited data

How the results depend on the processing

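Between *Ntn1SPKO* and *Foxd1GC* control kidneys, 2 of the 9 genes were called without *Foxd1GC* control replicate 2, and 0 when any other library was left out. The median log2 fold change of the 9 ranged from −1.01, without that library, to −0.41. At an unadjusted p under 0.05 with no fold limit the count was 2 against controls, 3 for *Ntn1SPKO* against wild-type kidneys and 2 for controls against wild-type kidneys. Embryo sex as a covariate moved the median against controls to 0.0099 and turned the sign of *Dcn* (0.17), *Lum* (0.0362), *Tnc* (0.42), *Lox* (0.0099), *Fibin* (0.0251) and *Alx1* (−0.09), and the sex effect there rests on 1 control library. Against wild-type kidneys it gave a median of −0.48 and a *Lum* value of −0.14. That fit in turn sets the *Ntn1SPKO* libraries against wild-type replicate 3 alone, so its calls are not given. Rescaling to the same total gave *Penk* a value of 0.031 against wild-type kidneys. Leaving out 1 library in turn, log2 fold changes that changed sign ranged from −0.34 to 0.0829 for *Penk* against controls, and against wild-type kidneys from −0.23 to 0.13 for *Penk*, −0.34 to 0.0814 for *Dcn* and −0.0051 to 0.37 for *Lum*. For controls against wild-type kidneys they ranged from −0.11 to 0.32 for *Penk*, −0.38 to 0.31 for *Smoc2*, −0.16 to 0.70 for *Postn* and −0.17 to 0.34 for *Fibin*, and the median from 0.0789 to 0.70, the highest without *Foxd1GC* control replicate 2. The cause of these changes was not tested. *Postn* and *Smoc2* stayed lower in *Ntn1SPKO* kidneys than in both other groups under each of these alternatives.

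The labels give groups the same replicate numbers. Deviations of same-numbered libraries correlated at −0.04 to 0.08, so the numbers were not taken as pairs. With the replicate number as a block 0 genes were called in each comparison, *Penk* was at −0.0771 and *Smoc2* at 0.0381 for controls against wild-type kidneys, and wild-type replicate 4, which has no partner, does not enter that estimate. Depth limits *Alx1* and *Fibin* most, which rested on roughly 85 and 151 fragments in their lowest libraries.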

Other observations

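*Fbln5*, for the elastic fibre protein fibulin 5, was higher in both groups with *Foxd1-Cre* than in wild-type kidneys and was singled out after its values had been seen. It was at 13.7, 13.2, 14.5 and 14.7 FPKM in wild-type replicates 1 to 4, at 31.7, 16.7 and 48.6 FPKM in *Foxd1GC* control replicates 1 to 3 and at 19.1, 23.2 and 25.7 FPKM in *Ntn1SPKO* replicates 1 to 3. No library of either Cre group overlapped the wild-type libraries, with log2 fold changes against wild-type kidneys of 1.07 for controls (standard error, SE, 0.31, limma adjusted p=0.665) and 0.68 for *Ntn1SPKO* kidneys (SE 0.11, limma adjusted p=0.14). Both comparisons use the same wild-type libraries. Between *Ntn1SPKO* and control kidneys the log2 fold change was −0.39 (SE 0.37, limma adjusted p=0.618).

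*Ccn3*, a matricellular gene also singled out after its values had been seen, had control levels of 5.44, 2.04 and 8.90 FPKM in replicates 1 to 3, beside 1.58 to 2.29 FPKM in wild-type and 1.98 to 3.11 FPKM in *Ntn1SPKO* libraries, and so repeated the spread of *Dcn*, *Lum*, *Tnc* and *Lox* among the controls.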
